A study of Mus musculus with 18 samples.

Results

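The AP-1 transcription factors Jun, Junb, Jund, Fos, Fosb, Fosl1, Fosl2, Atf3, Batf and Maff were followed in mouse hearts through the first postnatal month and in hearts that received a hairpin against Jun. The 10 genes were chosen by name and make up 10 of the 35843 genes counted. No measured value served as a cut-off, but the choice was made with earlier results of these data known. AP-1 is a family of leucine-zipper proteins that bind DNA as pairs. Jun proteins pair with one another or with Fos proteins, Fos proteins need a partner of another kind, and the Atf, Batf and Maf members widen the set of pairs and of DNA sites. Jun and Fos are immediate early genes, which means that growth factors, stretch, stress and also the dissociation of a tissue into single cells can induce their transcripts within minutes without new protein. In the heart they are best known from pressure overload and injury, whereas Jund is present at a steadier level in resting cells.

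All mice carried the Myh6/Esr1-Tomato alleles, a tamoxifen-inducible Cre under the cardiomyocyte promoter Myh6 with a tdTomato reporter, and mothers were given tamoxifen after birth. Hearts that received no hairpin were taken at P4 (2 mice), P7 (2 mice), P14 (2 mice) and P28 (5 mice). They are called wild-type below for short, although they carried these alleles. P4 and P7 ventricles were chopped and digested with an isolation kit, while P14 and P28 hearts were digested by Langendorff perfusion, so age and digestion cannot be told apart between P7 and P14. For the knockdown, lentiviral hairpins against Jun (shJun, 2 mice) or a non-targeting hairpin (shNT, 2 mice) were injected into the left ventricle at P1 and cells were taken at P28. The tables name the hairpin of each well but not whether the cell was transduced, so each sum can hold infected and uninfected cells. Cells were dispensed into the nanowells of ICELL8 chips and their transcripts counted as UMIs (unique molecular identifiers), which count molecules rather than reads.

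Of 15993 wild-type and 7482 knockdown wells with a cell, 12794 and 7057 passed the filters, and their cells had a median of 1439 and 2526 genes. Total UMIs per deposited sample ranged from 11160708 to 133241637. The same 5051 well barcodes serve on every chip, and 4890 of them were used in more than 1 sample, so a shared barcode is not a shared cell. Cells were clustered without the AP-1 genes and the gene lists used below, and clusters were called CM-like (cardiomyocyte), Endothelial-like, Fibroblast-like or Macrophage-like from 8 markers each. In the class comparison all 8 cardiomyocyte markers, among them Myh6 and Ryr2, were lower in each of the other classes, and all 8 markers of each of the other classes were higher in their own. The clusters had been named from these same markers, so this direction was largely set by the naming and does not test the names. UMIs were then summed per mouse and class, in 43 wild-type and 16 knockdown sums of 20 cells or more, and levels are given as CPM, the UMIs of a gene relative to all UMIs of the sum, on 1 scale over all 59 sums. Mice and hairpins were read from the well reports, where the wells of 1 pair of P28 chips name no mouse and were taken as 1 mouse (mouse 3), and p-values measure the spread between these mice. The CM-like sum of P7 mouse 1 had 11 cells and was left out, so that P7 has 1 CM-like sum of 28 cells, and a further P7 cluster of 321 cells in which cardiomyocyte markers led stayed unnamed because red cell genes such as Hba-a1 and Hbb-bs were among its leading genes. At P4, 207 CM-like cells came from a cluster led by Sln, Myl7 and Nppa, which are best known from atrial cardiomyocytes.

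The start regions of Jun, Junb, Fos and Maff are shown first, because AP-1 genes are themselves known to carry AP-1-related sites. Each line gives the 250 bases before the RefSeq start of 1 gene, 5′ to 3′ on the strand of the gene, from build GRCm38.p6. Capitals mark TGACNTCA, an 8-base site of the kind that Jun and Atf proteins bind.
Jun: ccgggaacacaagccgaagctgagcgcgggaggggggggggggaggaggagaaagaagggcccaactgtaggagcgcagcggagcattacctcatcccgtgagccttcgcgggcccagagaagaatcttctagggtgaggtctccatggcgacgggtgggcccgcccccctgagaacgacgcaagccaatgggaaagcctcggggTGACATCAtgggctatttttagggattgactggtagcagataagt
Junb: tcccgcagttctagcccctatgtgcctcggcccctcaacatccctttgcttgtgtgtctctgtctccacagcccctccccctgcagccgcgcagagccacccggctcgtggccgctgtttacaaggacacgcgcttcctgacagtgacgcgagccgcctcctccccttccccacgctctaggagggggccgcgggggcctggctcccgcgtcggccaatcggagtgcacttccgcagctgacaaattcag
Fos: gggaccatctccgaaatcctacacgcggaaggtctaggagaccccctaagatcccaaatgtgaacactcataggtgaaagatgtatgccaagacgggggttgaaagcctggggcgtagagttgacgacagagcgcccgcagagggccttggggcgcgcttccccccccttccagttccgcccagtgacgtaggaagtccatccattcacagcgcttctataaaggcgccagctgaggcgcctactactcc
Maff: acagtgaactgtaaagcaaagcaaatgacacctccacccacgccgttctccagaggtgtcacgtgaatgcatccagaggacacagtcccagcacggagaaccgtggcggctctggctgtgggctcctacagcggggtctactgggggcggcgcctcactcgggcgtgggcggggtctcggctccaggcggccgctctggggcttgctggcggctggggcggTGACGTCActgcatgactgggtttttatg
The Jun window lies at chr4:95052223-95052472 on the minus strand, and its TGACATCA stands 45 to 38 bases before the start, with a CCAAT at 65 to 61. Junb was taken from chr8:84978749-84978998 on the minus strand and held no such site, but a CCAAT 36 to 32 bases before the start. Fos, at chr12:85473640-85473889 on the plus strand, held a TATAAA 33 to 28 bases before its start. The Maff sequence lies at chr15:79347270-79347519 on the plus strand, with TGACGTCA 29 to 22 bases before the start. Maff has 3 annotated starts. The window of the first, at chr15:79346371-79346620, held no such site, and that of the last, at chr15:79348152-79348401, had TGACATCA 45 to 38 bases before its start. Of 32851 mouse start regions of this length, 7.49% held TGACNTCA on either strand, 33.8% held CCAAT and 12.4% held TATAAA, and the shorter AP-1 site TGANTCA, present in 6.75%, was in none of the members' windows. A start region was found for 9 of the 10 members. Among these 9, TGACNTCA was in 2 (Jun and Maff), CCAAT in 2 (Jun and Junb) and TATAAA in 1 (Fos). None of these matches shows that a protein was bound. The gene bodies are on GRCm38 at chr4:95049034-95052222 for Jun, chr8:84974484-84978718 for Junb, chr12:85473890-85477273 for Fos and chr15:79346621-79359076 for Maff. The antisense gene Junos overlaps Jun and Gm11175 overlaps Jund, and whether reads were counted by strand is not given in the sources used here, so those pairs cannot be separated.

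The first question was how the family changes in maturing cardiomyocytes. In CM-like cells 7 of the 9 members tested were higher in P14 and P28 hearts than in P4 and P7 hearts: Jun, Junb, Fos, Fosb, Fosl2, Atf3 and Maff. None was lower. The test was the quasi-likelihood test of edgeR, its p-values adjusted by Benjamini and Hochberg's method over 15466 genes, of which 4.84% were called higher and 8.54% in either direction. The members' median log2 change was 1.60, against 0.31 over all genes tested.

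Jun, the best studied partner of the Fos proteins, stood at 55.4 and 50.03 CPM in the P4 mice, 75.4 CPM in the P7 mouse, 84.6 and 198 CPM in the P14 mice and 184, 180, 225, 231 and 187 CPM in the P28 mice. No older heart overlapped the younger ones, although P14 mouse 1 lay close to the P7 value and P14 mouse 2 among the P28 values. The log2 change was 1.42 ± 0.36 (SE, edgeR adjusted p = 0.0235). Junb, a Jun relative that often damps Jun activity, was at 7.30 and 17.8 CPM at P4, 29.9 CPM at P7, 16 and 25.5 CPM at P14 and 134, 127, 134, 98.4 and 119 CPM at P28. Its change was 1.38 ± 0.39 (SE, edgeR adjusted p = 0.0394), with the P14 hearts among the younger ones and the 5 P28 hearts above all others. Jund did not pass the test, at 52.0 and 52.5 CPM at P4, 15.7 CPM at P7, 61.3 and 68.3 CPM at P14 and 25.5 to 74.1 CPM at P28.

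Fos, the founding member of the Fos group, measured 49.96 and 25.5 CPM at P4, 65.7 CPM at P7, 133 and 55.0 CPM at P14, and 251.2, 275, 377, 203 and 120 CPM at P28. The older and younger hearts overlapped only through P14 mouse 2, and the log2 change was 1.60 ± 0.44 (SE, edgeR adjusted p = 0.0333). Fosb, a close homologue of Fos, was nearly absent early, with 0.748 and 0.658 CPM in the P4 mice and nothing counted at P7, and reached 19.7 and 14.5 CPM at P14 and 13.9, 8.06, 33.1, 16.5 and 8.52 CPM at P28. Against a floor of 3 counts for the P7 sum this was at least 13.2-fold higher in the older hearts (edgeR adjusted p = 0.00348). Fosl2, which lacks the strong activation domain of Fos, was at 2.81 and 7.11 CPM at P4, 23.9 CPM at P7, 23.8 and 99.5 CPM at P14 and 29.9 to 49.8 CPM at P28, a log2 change of 2.16 ± 0.54 (SE, edgeR adjusted p = 0.0236). The P7 value lay level with the lower P14 value, and both P4 mice were below every older heart. Fosl1 had no UMI at P4 or P14, 10 UMIs (7.47 CPM) in the P7 sum and 0 to 4.32 CPM at P28, which is too little to read a direction from.

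**Figure D1:**
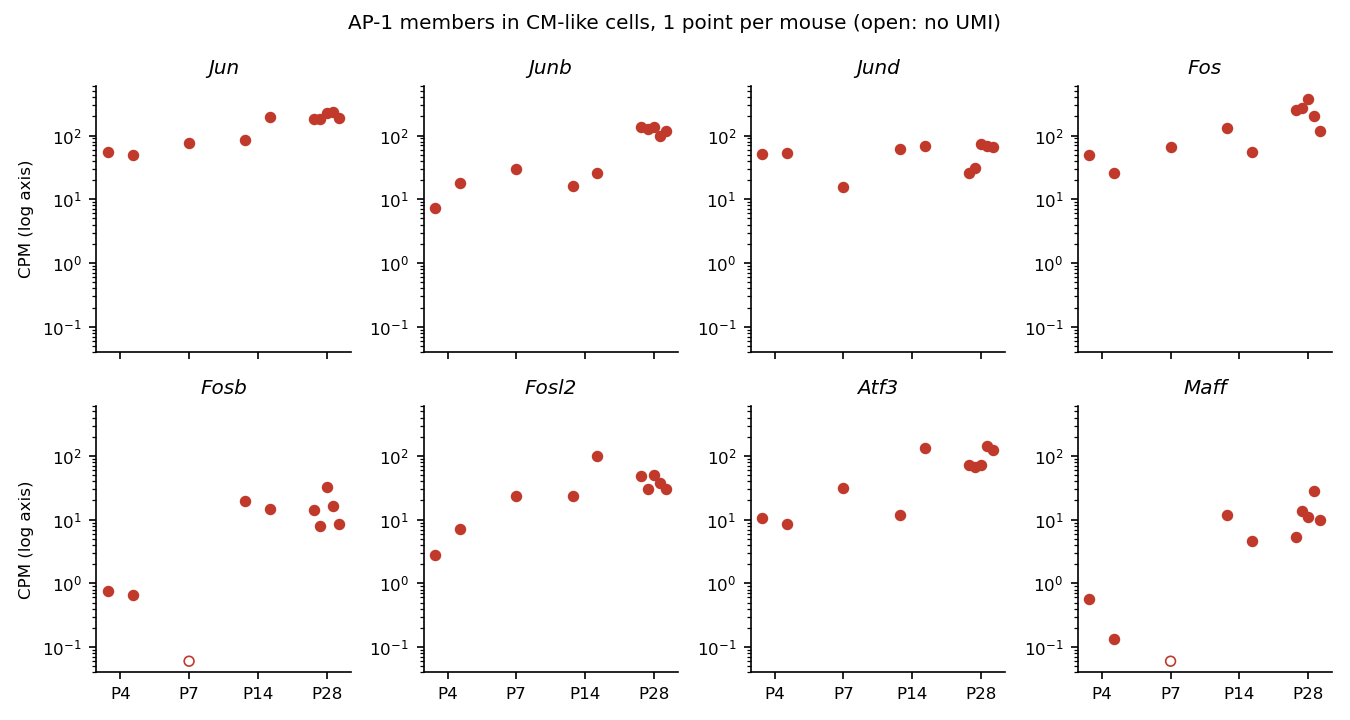
Level of 8 AP-1 genes in CM-like cells at P4, P7, P14 and P28, in CPM on a log axis, with 1 point per mouse and open points for sums with no UMI. Jun, Fosb and Maff show no overlap between P4 or P7 hearts and older ones, and Junb stands apart at P28 (98.4 to 134 CPM).

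Atf3, a stress-induced member that can repress as a pair with itself, was at 10.7 and 8.69 CPM at P4, 31.4 CPM at P7, 11.9 and 132 CPM at P14 and 71.3, 67.6, 72.5, 145 and 122 CPM at P28. The P14 mice lay far apart, and the log2 change was 2.25 ± 0.63 (SE, edgeR adjusted p = 0.0369). Maff, a small Maf protein without an activation domain, rose from 0.561 and 0.132 CPM in the P4 mice and nothing counted at P7 to 11.9 and 4.63 CPM at P14 and 5.30, 13.8, 11.2, 27.9 and 9.84 CPM at P28, at least 12.0-fold (edgeR adjusted p = 0.00943). Batf, best known from lymphoid and myeloid cells, had no UMI through P14 and 0 to 1.96 CPM at P28, and did not pass the filter on low counts.

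With 3 younger and 7 older sums, single mice weighed on these calls. Without P14 mouse 2, without P4 mouse 1 or without P4 mouse 2 the number of members called higher was 3, 3 and 4. Fosb and Maff kept their calls without any 1 mouse, while Jun (adjusted p = 0.054 without P14 mouse 2), Junb, Fos, Fosl2 and Atf3 each lost it without at least 2 of the mice, and the log2 change of Atf3 was 1.0 without P14 mouse 2 (adjusted p = 0.161). Where only P14 was set against P7 in the same fit, 0 of 9 members were called, and Junb was then lower at P14 (log2 change −0.56).

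Several other measures moved with the older CM-like sums, and their part in the AP-1 levels was not tested. Macrophage markers were higher for 6 of 8 genes, and their summed level went from 14.3 to 14.97 CPM at P4 and 38.8 CPM at P7 to 27.8 to 109 CPM at P14 and 169 to 395 CPM at P28, which is 0.26 to 0.39%, 0.72%, 0.29 to 1.36% and 1.31 to 3.71% of the level in Macrophage-like cells of the same stage. Adgre1, Cd68 and Fcgr1 were at 0 in the P7 sum. Over the same stages Jun in CM-like cells stood at 19.9 to 21.0%, 39.6%, 25.1 to 33.4% and 32.9 to 117% of the Macrophage-like level of Jun. Endothelial markers were called higher for 1 of 8, Fabp4, and summed to 293 to 487 CPM at P4, 548 CPM at P7, 971 to 1312 CPM at P14 and 904 to 3862 CPM at P28, against 4216 to 9683 CPM in Endothelial-like sums, and a P28 CM-like cluster of 521 cells was led by Cav1 and Pcdh17. Red cell genes were higher for 5 of 6, from 257 to 554 CPM at P4 to 6741 to 186514 CPM at P14. A cluster of 99 P28 cells with cardiomyocyte markers was led by Rgs1, Ccl4, Cxcl2 and Atf3, and without it 5 of 9 members were called, with Junb at an adjusted p of 0.061 and Atf3 at 0.058 in edgeR. The mitochondrial share of all UMIs was read over all passing cells of a mouse, not over CM-like cells alone. It was 21.2 to 24.8% at P4, 51.9 to 52.1% at P7, 71.5 to 74.8% at P14 and 30.4 to 55.7% at P28. It did not rise steadily, since the P28 range spanned the P7 values, and its part was not tested either. At P4 the cluster led by Sln, Myl7 and Nppa gave 207 CM-like cells and the other CM-like cluster 107. No CM-like cluster of a later stage had Sln or Myl7 among its leading genes.

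Few other genes of the pathway were called in CM-like cells. None of the 11 AP-1 relatives tested (such as Jdp2 and Maf) was called. Among 17 upstream genes, only Srf, the serum response factor that drives Fos transcription, was higher, by 1.45 ± 0.41 (SE, edgeR adjusted p = 0.0375). Of 17 genes often cited as AP-1 targets, Ccl2 and the vessel growth factor Vegfa (1.77 ± 0.43 on the log2 scale, SE) were higher. Other immediate early genes, which share the rapid induction but not the AP-1 protein fold, were higher for 12 of 23, with a median log2 change of 2.28. Klf4 rose by 3.13 ± 0.44, the phosphatase gene Dusp1 by 2.58 ± 0.45 and Zfp36, which promotes mRNA decay, by 5.36 ± 0.92 (log2 ± SE, edgeR adjusted p = 0.00114, 0.00348 and 0.00327). Heat shock genes were higher for 1 of 10, Hspa1b.

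In the non-cardiomyocyte classes fewer members were called between the same stages, in fits of their own that do not test whether the classes differ. In Endothelial-like cells 0 of 9 members were called by edgeR, where 3.69% of genes were called in either direction and 1.92% higher, and the members' median log2 change was 0.62 against −0.03 over all genes. Jun was at 202 and 192 CPM at P4, 277 and 242 CPM at P7, 278 and 240 CPM at P14 and 125 to 328 CPM at P28, with P28 mice on both sides of the younger hearts. Endothelial Junb was at 43.0 to 77.5 CPM at P4, 162 to 191 CPM at P7, 48.8 to 145 CPM at P14 and 189 to 340 CPM at P28, where the P28 hearts reached the highest levels but the P7 hearts exceeded those at P14. Clusters with Npr3 and Cytl1 among their leading genes counted as Endothelial-like at P4 (177 cells) and P14 (42 cells). At P28 such a cluster (163 cells) was named Mesothelial-like and left out, and the part of this in the levels was not tested. In Fibroblast-like cells 1 of 9 members was higher against 2.37% of all genes (5.02% in either direction). This was Fosl2, which was at 10.9 and 10.5 CPM at P4, 9.38 and 15.2 CPM at P7, 64.5 and 45.3 CPM at P14 and 143, 23.1, 62.7, 25.2 and 73.7 CPM at P28, a log2 change of 2.78 ± 0.58 (SE, edgeR adjusted p = 0.0106). No older heart overlapped a younger one, yet the call was lost without any 1 of the 4 younger mice.

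Macrophage-like cells had 2 of 9 members higher, against 1.95% of all genes (3.49% in either direction). Junb was at 219 and 176 CPM at P4, 205 and 248 CPM at P7, 436 and 369 CPM at P14 and 1082, 395, 634, 658 and 332 CPM at P28, a log2 change of 1.28 ± 0.34 (SE, edgeR adjusted p = 0.045) with no overlap between younger and older hearts. Fosl2 changed by 3.06 ± 0.80 (SE, edgeR adjusted p = 0.045), from 3.03 to 31.8 CPM in the younger hearts to 10.3 to 300.2 CPM in the older ones, which overlapped through P14 mouse 1. Each of these calls was lost without any of 9 of the 11 mice, and the Fosl2 change was 1.03 without P14 mouse 2. Fos was not called there and spread from 106 to 1209 CPM. Other immediate early genes were called as well, 7 of 22 in Endothelial-like, 5 of 22 in Fibroblast-like and 7 of 23 in Macrophage-like cells, all higher. Dusp1 and Btg2 were among the leading genes of each. This list is longer than that of the 9 members, so the numbers of calls do not rank the 2 sets.

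**Figure D2:**
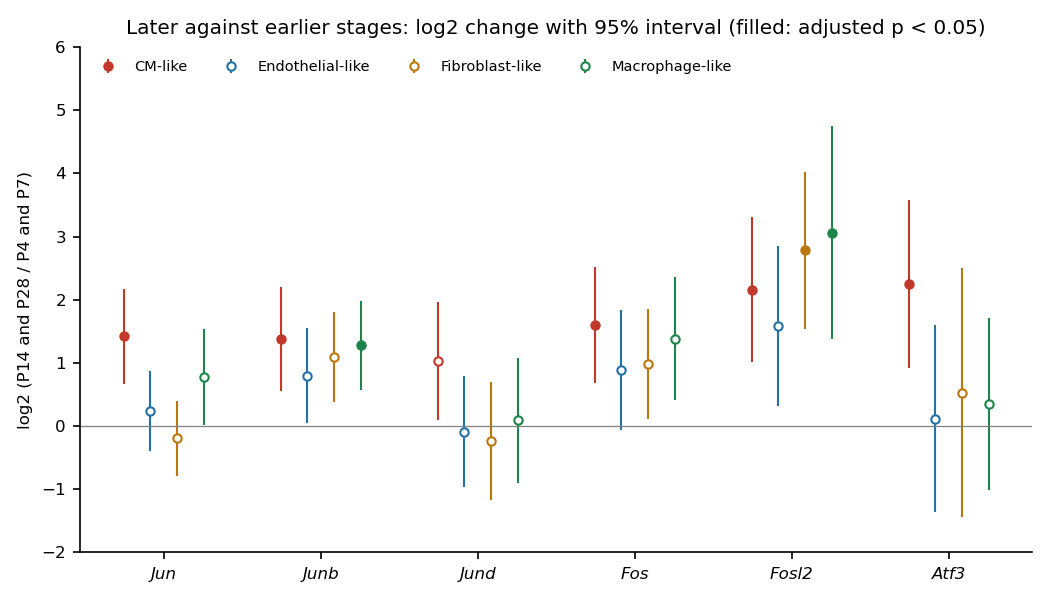
Log2 change between older (P14 and P28) and younger (P4 and P7) hearts for 6 AP-1 genes in 4 cell classes, with 95% intervals from edgeR and filled points where the adjusted p was under 0.05. CM-like changes sit between 1.03 for Jund and 2.25 for Atf3, and the filled points outside CM-like cells are Fosl2 in Fibroblast-like and Junb and Fosl2 in Macrophage-like cells.

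P7 and P4 hearts were digested with the same kit, and no member was called between them in any class with edgeR. For CM-like cells this rests on the 1 P7 sum of 28 cells, and in sums per chip the log2 difference of P7 from P4 was −0.75 for Junb and −1.76 for Atf3, against 1.41 and 1.85 in the sums per mouse. Calls over all genes were 4, 1, 4 and 8 in CM-like, Endothelial-like, Fibroblast-like and Macrophage-like cells, which is 0.0259, 0.00702, 0.0296 and 0.0691% of those tested, against 2033, 461, 355 and 1141 genes at an unadjusted p under 0.05. Jun in Fibroblast-like cells was at 245 and 212 CPM at P4 and 370 and 354 CPM at P7, and Fos at 174 and 118 CPM against 322 and 214 CPM. Both P7 mice were above both P4 mice for Jun and for Fos, without passing the test over all genes. Xist was at 217 to 239 CPM in the P4 mice and 0.563 to 1.02 CPM in the P7 mice, so sex and stage cannot be told apart here.

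The next comparison asked which cells carry the family, in the 10 wild-type hearts with all 4 classes. Jun, Junb and Fos were lowest in CM-like and highest in Macrophage-like cells by the median over mice (10 CM-like sums and 11 of each other class). These medians pooled all stages. At P28 alone the Fos median was 251.2 CPM in CM-like and 203.8 CPM in Endothelial-like cells, so CM-like was not lowest. The P28 medians of Jun were nearly level in these 2 classes, at 187 and 190 CPM. At P4, P7 and P14 the CM-like median was below the Endothelial-like one for both genes. For Jun at P4 these were 52.7 and 197 CPM. Junb had medians of 64.2 CPM in CM-like, 189 CPM in Endothelial-like, 190 CPM in Fibroblast-like and 369 CPM in Macrophage-like cells, and each of the other classes exceeded CM-like in 10 of 10 hearts. With the mouse as a block over 12714 genes, Junb was higher than in CM-like cells by 1.59 ± 0.26, 1.95 ± 0.26 and 3.15 ± 0.27 (log2 ± SE, edgeR adjusted p = 7.23e-06, 1.29e-07 and 5.73e-12). Endothelial-like and Fibroblast-like medians of Junb differed by less than their spread over mice.

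For Jun the medians were 182, 202, 220 and 359 CPM in the same order, and the classes stood above CM-like in 7, 7 and 9 of 10 hearts. The fitted differences were 0.67 ± 0.22, 0.74 ± 0.22 and 1.51 ± 0.23 (log2 ± SE, edgeR adjusted p = 0.0194, 0.00978 and 9.64e-07). Fos had medians of 127, 133, 282 and 413 CPM, with no call for Endothelial-like cells and differences of 0.79 ± 0.27 for Fibroblast-like cells and 1.87 ± 0.29 for Macrophage-like cells (log2 ± SE, edgeR adjusted p = 0.0242 and 1.48e-06). Fosb, at medians of 11.2, 9.82, 30.2 and 62.9 CPM, was above CM-like in 10 of 10 hearts both in Fibroblast-like cells and in Macrophage-like cells, by 2.35 ± 0.51 and 3.32 ± 0.52 (log2 ± SE, edgeR adjusted p = 0.000322 and 2.12e-06). Leaving out any 1 mouse kept the calls for Junb and Fosb and the Macrophage-like calls for Jun and Fos, whereas Jun in Endothelial-like cells lost its call without P14 mouse 1, P4 mouse 1 or P4 mouse 2, Jun in Fibroblast-like cells without P4 mouse 1 or P7 mouse 2, and Fos in Fibroblast-like cells without any of 6 mice. Neighbouring medians of CM-like and Endothelial-like cells did not differ beyond their spread for Fos or Fosb.

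Atf3 went the other way against Endothelial-like and Fibroblast-like cells, which were lower than CM-like by a log2 change of −2.07 ± 0.59 and −1.56 ± 0.59 (SE, edgeR adjusted p = 0.00605 and 0.0396). By heart, Atf3 was below CM-like in 7 of 10 hearts in Endothelial-like and in 5 of 10 in Fibroblast-like cells. The Fibroblast-like call was lost without P14 mouse 2 (−1.16), P28 mouse 4 (−1.08) or P28 mouse 5 (−0.98). The medians of Atf3 were 69.5 CPM in CM-like, 14.3 CPM in Endothelial-like, 36.7 CPM in Fibroblast-like and 87.5 CPM in Macrophage-like cells. P28 fractions of cardiomyocytes and other cells were loaded on different chips, and within chips the Atf3 differences were −0.44 (adjusted p = 0.69) and 0.12 (adjusted p = 0.93) in edgeR, with 2.38 ± 0.64 (SE, adjusted p = 0.0060) for Macrophage-like cells. At P28 the cardiomyocyte chips held at most 14 cells of the Endothelial-like or of the Fibroblast-like class. The other P28 chips held 5 to 7 CM-like cells, and a sum needed 20. Direct within-chip contrasts of Endothelial-like and Fibroblast-like with CM-like cells therefore came from P4, P7 and P14 chips, a different set of stages. Within chips Jun, Junb and Fos were higher in all 3 classes than in CM-like cells, by 1.31 to 2.14 for Jun, 2.21 to 3.83 for Junb and 1.12 to 3.17 for Fos on the log2 scale. In all, 3, 5 and 6 of 8 members were called in either direction in Endothelial-like, Fibroblast-like and Macrophage-like cells, where 30.9, 31.2 and 38.4% of all genes were called.

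Jund and Fosl2 differed least between classes. Jund had medians of 56.9, 79.8, 67.1 and 74.0 CPM and was called only in Macrophage-like cells, at a log2 difference of 0.64 (adjusted p = 0.0486), and Fosl2 had medians of 30.04, 32.6, 25.2 and 39.6 CPM with 1.08 in Macrophage-like cells (adjusted p = 0.0411), and neither was called there within chips or without any of 8 of the 10 mice. Maff was called in no class and stood above CM-like in 8, 6 and 3 of 10 hearts. Fosl1 and Batf were tested in no class comparison, and Batf had 0 to 57.1 CPM in Macrophage-like cells and was above CM-like in 9 of 10 hearts. Other immediate early genes were higher than in CM-like cells for 9, 9 and 16 of 23 and lower for 1, 0 and 1. Of 15 upstream genes 5, 4 and 6 were lower and 4, 0 and 1 higher.

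**Figure D3:**
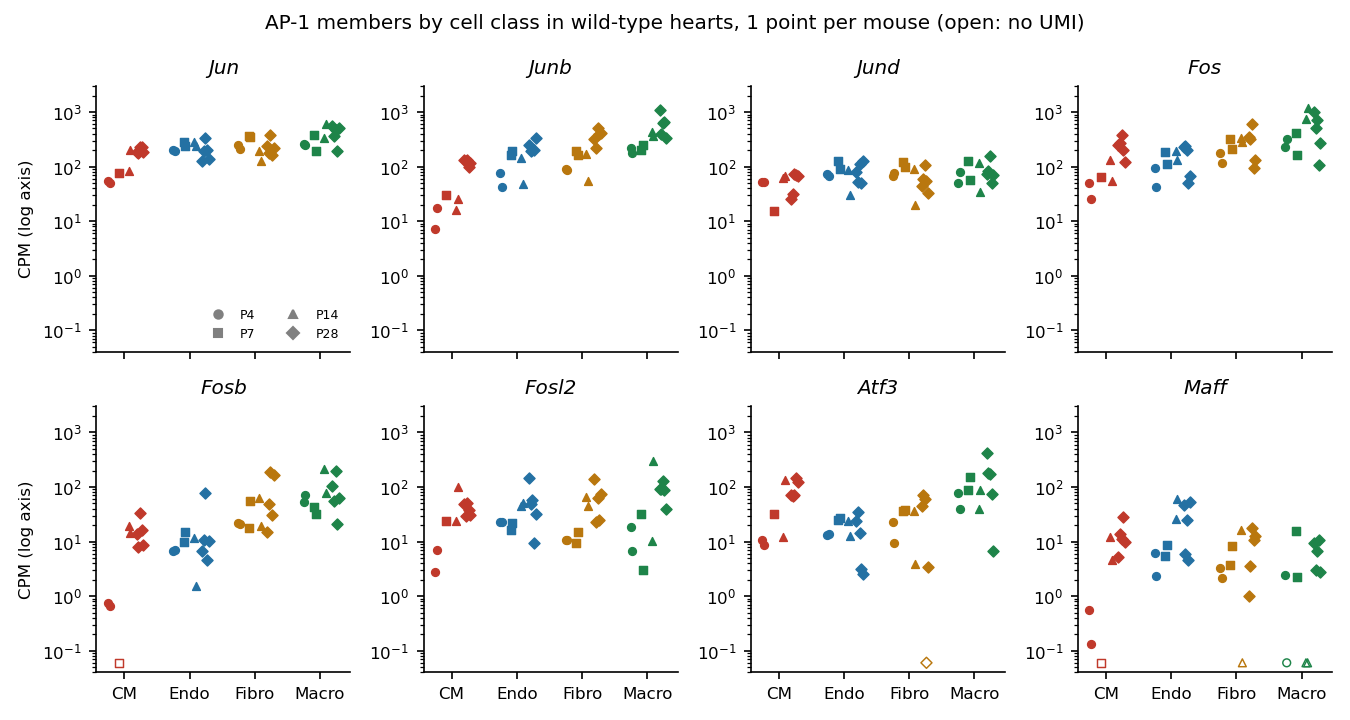
Level of 8 AP-1 genes by cell class in wild-type hearts, in CPM on a log axis, with 1 point per mouse, marker shape for the stage and open points for sums with no UMI. Junb climbs from a median of 64.2 CPM in CM-like to 369 CPM in Macrophage-like cells, while the Jund classes overlap throughout.

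The share of cells with at least 1 UMI gives another view of the CM-like levels, after each cell was thinned to 2000 UMIs so that depth could not set it. Jun was seen in 5.22 to 9.15% of thinned CM-like cells per mouse at P4, 8.62% at P7, 4.68 to 11.5% at P14 and 15.4 to 20.1% at P28. Unthinned shares were 23.2 to 37.9%, 42.9%, 16.2 to 27.9% and 26.4 to 56.7%, and at P28 175 of 2210 cells were too shallow to thin. Fos was seen in 3.38 to 5.59%, 7.20%, 3.45 to 8.13% and 13.4 to 26.6% of thinned cells. The P28 ranges lay above those of all younger stages for both genes. No class here is known to lack Jun or Fos, so a background share from free RNA could not be set.

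The knockdown was then read first at its target. In CM-like cells Jun was at 39.1 and 45.3 CPM in the shJun mice and 90.3 and 93.7 CPM in the shNT mice, with no overlap. The log2 difference was −1.10 ± 0.24 (SE), with a 95% interval of −1.68 to −0.52 and an unadjusted edgeR p of 0.00338, which did not survive adjustment over 17665 genes (adjusted p = 1). DESeq2 gave an adjusted p of 0.0983 and the fit with chips as a block −1.20 ± 0.23 (SE, edgeR adjusted p = 0.217). Both hairpins were present on each of 4 chips, and on plain CPM of the chip sums Jun was lower with shJun on 4 of 4, at 17.2 against 68.3, 39.3 against 65.1, 29.6 against 78.0 and 45.4 against 72.1 CPM. These chips carried cells of the same 2 mice per hairpin, so they are not independent replicates. An exact permutation of 2 against 2 mice cannot give a two-sided p under 0.333. Thinned shares of CM-like cells with a Jun UMI were 4.89 to 5.37% with shJun and 7.41 to 8.82% with shNT, and unthinned 32.7 to 39.3% and 43.6 to 51.2%.

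Outside CM-like cells Jun was not consistently lower. Endothelial-like cells had 95.5 and 141 CPM with shJun and 139 and 123 CPM with shNT, a log2 difference of −0.19 ± 0.56 (SE). In Fibroblast-like cells Jun was at 163 and 205 CPM against 63.6 and 146 CPM, a log2 difference of 0.84 ± 0.50 (SE), and 1 cell held 61.4% of the Jun UMIs of shJun mouse 2, the higher of the shJun mice. Macrophage-like cells had 161 and 97.7 CPM against 66.5 and 292 CPM, with shNT on both sides of shJun (−0.34 ± 0.80, log2 ± SE).

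No member, Jun included, was called between shJun and shNT in any class, and edgeR called 0 genes in all, 0% of those tested, against 418, 590, 671 and 550 genes at an unadjusted p under 0.05 in CM-like, Endothelial-like, Fibroblast-like and Macrophage-like cells. DESeq2 called 11, 136, 87 and 64 genes, with no member among them. The intervals show how much could have been missed. Among the Jun proteins in CM-like cells, Junb was at 15.3 and 9.82 CPM with shJun and 13.6 and 9.30 CPM with shNT, a log2 difference of 0.17 ± 0.40 (SE) with a 95% interval of −0.79 to 1.14. Jund was at 152 and 40.5 CPM against 150 and 60.9 CPM, with an interval of −1.65 to 1.48. The spread of Jund within a hairpin exceeded the difference between hairpins, while the Junb values lay close together.

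Among the Fos genes in CM-like cells, Fosl2 gave an interval of −0.88 to 0.70 around −0.09, from 28.3 and 19.1 CPM with shJun and 30.1 and 21.6 CPM with shNT. Fos was at 13.9 and 6.09 CPM with shJun and at 36.7 and 1.63 CPM with shNT, so that the shNT mice enclosed the shJun mice. Its log2 difference was −0.85 with an interval of −3.70 to 2.00, was 0.21 with mice sharing chips as a block, and was called without shNT mouse 2 (−1.79 ± 0.45, SE, edgeR adjusted p = 0.0261). Fosb was at 0.713 and 0.357 CPM against 2.27 and 0.440 CPM (−1.28 with an interval of −3.66 to 1.10). Atf3 was at 9.31 and 6.61 CPM against 15.5 and 6.60 CPM (−0.42 with an interval of −1.64 to 0.80), and Maff at 2.69 and 3.83 CPM against 0.992 and 3.83 CPM (0.42 with an interval of −1.56 to 2.41). Batf had no UMI in 1 mouse of each hairpin and 0.380 and 1.32 CPM in the other shJun and shNT mice, with an interval of −6.68 to 3.26, and Fosl1, at 0.158 to 0.548 CPM, was not tested. These intervals leave room for changes of more than 1 log2 unit in either direction for Jund, Fos, Fosb, Batf and Maff.

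In the other classes a few cells held much of the Fos counted. Endothelial-like cells had 5.30 and 26.9 CPM with shJun against 207 and 37.6 CPM with shNT, both shJun mice being lower (−2.98 ± 1.09, log2 ± SE), and 1 cell held 70.3 and 69.9% of the Fos UMIs in the shNT sums. Macrophage-like cells had 172 and 145 CPM against 58.0 and 4.76 CPM, both being higher (2.38 ± 1.09, log2 ± SE), with 34.6 and 64.4% of the Fos UMIs of the shJun sums in 1 cell each. Fos was also higher there on 5 of 5 chips, which repeat the same few mice. Fibroblast-like cells had 23.0 and 5.64 CPM against 51.6 and 7.71 CPM. In shNT mouse 2 a cluster of 335 cells with Npr3 and H19 among its leading genes was named Erythroid-like and left out. This left 97 Endothelial-like cells in that mouse, against 245 to 353 in the others. Clusters led by Npr3 and Cytl1 counted as Endothelial-like in shNT mouse 1 and shJun mouse 2 (33 cells each). The part of this in the Endothelial-like values was not tested. In the Endothelial-like sums mural markers stood at 1294 to 1795 CPM with shJun and 442 to 743 CPM with shNT, and fibroblast markers at 4376 to 5267 CPM and 2390 to 3298 CPM, while red cell genes stood at 37001 to 85261 CPM with shJun and 130165 to 140584 CPM with shNT. Cardiomyocyte markers summed to 9683 to 42708 CPM in the Fibroblast-like and 9698 to 59040 CPM in the Macrophage-like knockdown sums, against 455 to 2058 CPM and 1066 to 2473 CPM at wild-type P28, and their part in these values was not tested. Xist was at 185 and 0.244 CPM in the shJun mice and 3.83 and 1.78 CPM in the shNT mice, so sex was not balanced between the hairpins. In no class was any gene of the relatives, upstream, target, immediate early or heat shock lists called.

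**Figure D4:**
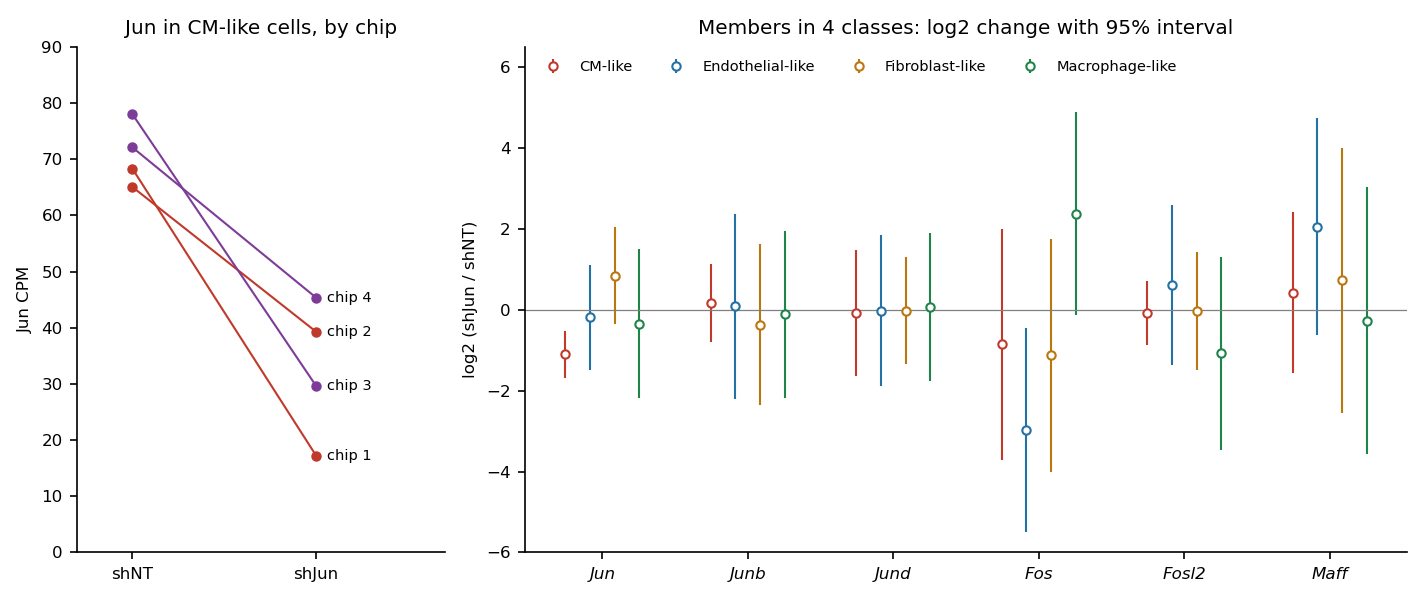
Left, Jun in CM-like cells on each of 4 chips with shNT and shJun, in CPM of the chip sum, with colours for the pairs of mice that shared chips. Right, log2 difference between shJun and shNT mice for 6 AP-1 genes in 4 classes with 95% intervals from edgeR, where Jun in CM-like cells spans −1.68 to −0.52 and no difference passed adjustment.

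Wild-type and knockdown hearts at P28 were prepared as separate experiments, and some AP-1 genes differed between them. In CM-like cells Junb was at 98.4 to 134 CPM in 5 wild-type mice and at 13.6 and 9.30 CPM in the shNT mice, and Atf3 at 67.6 to 145 CPM against 15.5 and 6.60 CPM. Neither gene overlapped between the experiments, with log2 differences of −3.77 ± 0.39 and −3.48 ± 0.54 (SE, edgeR adjusted p = 0.0022 and 0.0154), a comparison that was added after the levels had been seen. Without shNT mouse 2 the differences were −3.53 and −2.99 and neither was called (adjusted p = 0.0787 and 0.192). Jun was at 180 to 231 CPM against 90.3 and 93.7 CPM (adjusted p = 0.064). Jund, at 25.5 to 74.1 CPM against 150 and 60.9 CPM, and Fosl2, at 29.9 to 49.8 CPM against 30.1 and 21.6 CPM, overlapped between the experiments. In all, 2 of 8, 0 of 8, 1 of 8 and 3 of 9 members were lower in shNT CM-like, Endothelial-like, Fibroblast-like and Macrophage-like cells, against 0.508, 0.00861, 0.0688 and 0.944% of all genes. In Macrophage-like cells these were Junb, Fos and Fosb, and Fosb was at 0.710 and 0.414 CPM with shNT and 21.0 to 199.6 CPM in the wild-type mice. The shNT CM-like levels of Junb and Atf3 were near those of the P4 mice, at 7.30 to 17.8 and 8.69 to 10.7 CPM. Fos, at 1.63 to 36.7 CPM with shNT, did not exceed its P4 range of 25.5 to 49.96 CPM. The shNT values of Fosb enclosed its P4 values, whereas Jun, Fosl2 and Maff stood above their P4 ranges. The rise by P28 in wild-type CM-like cells was thus not seen for every member in these P28 hearts. Virus, hairpin, preparation and sequencing differ together between the experiments and cannot be told apart.

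**Figure D5:**
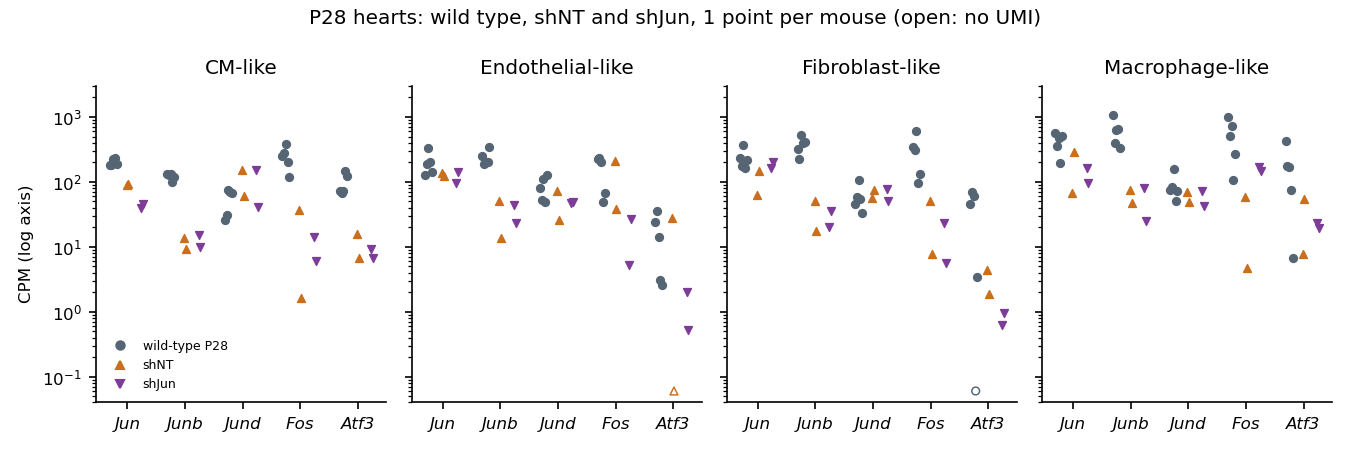
Level of Jun, Junb, Jund, Fos and Atf3 at P28 in wild-type, shNT and shJun hearts by cell class, in CPM on a log axis with 1 point per mouse. Wild-type CM-like Junb (98.4 to 134 CPM) lies above all 4 knockdown-experiment mice (9.30 to 15.3 CPM).

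Across the 43 wild-type sums, which share mice and classes, members differed in how closely they followed Jun and Fos. Pearson's r on log2(CPM + 1) was 0.72 between Jun and each of Fos, Junb and Fosb, and 0.73 between Fos and Fosb. It was low for Maff, at 0.14 with Jun and −0.01 with Fos, and for Fosl1, at −0.09 and −0.23, and Jund reached 0.43 with Jun and 0.22 with Fos. Of 13910 genes, those most like Jun were Nfkbiz (0.71), Rab8b (0.71), Arpc1b (0.71), Dab2 (0.70) and Asah1 (0.70), and those most like Fos were Nfkbiz (0.80), Cebpa (0.78), Tnfrsf1b (0.78), Rassf2 (0.77) and Gadd45b (0.74). These coefficients describe the sums and carry no test, because sums of 1 mouse share their preparation and the Macrophage-like sums are high for many genes at once.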

How the data were processed

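Per the labels, the study prepared single cells on ICELL8 chips and the authors aligned reads to mm10 with STAR 2.5.2b and counted them with featureCounts (Subread 1.4.6-p1). The deposited tables hold UMI counts per well and gene, not normalized, with a report that names the sample in each well. 181 control wells, 35 mitochondrial genes and 99 spike-in columns were left out of the sums, and the Batf column was absent from 1 P28 and 1 shRNA table, where it was read as no count.

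Cells were kept with at least 500 genes and with log10 total UMIs within 2 SD of the mean of their stage or of the knockdown samples. No doublet caller was run beyond that upper limit, and cells were clustered by stage or knockdown mouse (10 components, 30 neighbours, leidenalg 0.10.2, resolution 0.8 or 1.0). The members and gene lists were left out of clustering. A cluster was named from at least 3 detected markers of the leading class, and its margins were chosen once the clusters were known. UMIs were summed per mouse and class (at least 20 cells), in sums of 415956 to 64846400 UMIs, and tested with edgeR 4.0.16 (quasi-likelihood, TMM, filterByExpr, adjusted p under 0.05 over all genes) in R 4.3.3, with limma 3.58.1. Earlier and later stages were compared in 1 fit of all stages per class, classes with the mouse as a block, and hairpins without a block. Printed CPM share 1 TMM scale over all 59 sums, whereas fitted log2 changes use the scale of their own fit. Alternatives were DESeq2 1.42.0, no low-count filter, cells of at least 1000 genes, cells capped at 5000 UMIs, cells called one by one from markers, sums per chip, and each mouse left out. The edgeR step was tried on simulated counts. Their spread between sums was set below that estimated in any fit (common dispersion 0.223 to 0.662), so the trial does not cover the noise of these data. A 95% interval is that of the fit, and floors of 3 counts cover counting error only.

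All 10 members were read in every comparison, with those not called given by counts or ranges, and from each fixed list the genes with the smallest p, at most 4 past the threshold. The members and lists were chosen with earlier results of these data known. The knockdown mice that share chips and a number were examined as pairs: deviations from the hairpin means correlated at 0.354, −0.01, 0.08 and 0.08 in CM-like, Endothelial-like, Fibroblast-like and Macrophage-like sums, which for 2 pairs does not settle a pairing. Protein sequences were not used here.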

Additional observations from a re-analysis of the deposited data

Results flagged for a closer look

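In 2 of 34 groups of 5 mice, 1 mouse stood apart from the rest, where chance gives about 1 in 20. Fosb in Endothelial-like cells of P28 mouse 3 was at 76.19 CPM against 4.67 to 10.7 CPM in the other P28 mice, a gap of 0.915 of the whole range. It rested on 277 UMIs in 51 of 217 cells, of which the top cell held 22%. Fosl1 in Fibroblast-like cells of P28 mouse 4 was at 71.17 CPM against 0 to 4.13 CPM, a gap of 0.942 of the range, and 1 cell held 99.0% of its 99 UMIs.

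For 2 members the shJun mice lay on opposite sides of the shNT mice in a pair of classes, without overlap in either class. The difference between classes was tested in an edgeR fit of all classes over 17147 genes that called 0 genes after adjustment. For Jun the Fibroblast-like difference between shJun and shNT exceeded the CM-like one by 2.05 ± 0.80 (log2 ± SE, unadjusted p = 0.0256, adjusted p = 1). For Fos the Macrophage-like difference exceeded the Endothelial-like one by 5.67 ± 1.31 (log2 ± SE, unadjusted p = 0.000997, adjusted p = 0.632). In the same edgeR fit the Macrophage-like difference of Fos exceeded the CM-like one by 3.03 (adjusted p = 1) and the Fibroblast-like one by 3.83 (adjusted p = 0.784), and Batf, with 0 to 42 UMIs in the CM-like and Fibroblast-like sums, also passed an unadjusted p under 0.05 between these 2 classes. Both values rest on 2 mice per hairpin and partly on single cells. In 1 cell lay 61.4% of the Jun UMIs of the shJun mouse 2 Fibroblast-like sum, 70.3 and 69.9% of the Fos UMIs of the shNT Endothelial-like sums, and 34.6 and 64.4% of those of the shJun Macrophage-like sums.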

How the results depend on the processing

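Over the called members, all members of the CM-like knockdown, and Jun and Fos of the other knockdown classes, the alternative fits that left no mouse out turned a gene's direction 11 times, lost a call 36 times and kept both 237 times. Members not called elsewhere turned too, such as Junb (−0.75) and Atf3 (−1.76) for P7 against P4 in CM-like sums per chip. In CM-like cells with shJun against shNT, Fos was 0.21 with the replicate block of mice sharing chips and 0.29 in sums per chip with the chip as block, Junb −0.10 with cells called one by one, and Fosl2 0.35 and Maff −0.49 with cells capped at 5000 UMIs (log2). Jun was 0.07 (cells called one by one) and 0.73 (capped) in Endothelial-like, −0.42 (one by one) in Fibroblast-like and 0.15 (capped) in Macrophage-like cells. With P14 against P7, Junb in CM-like cells was −0.56, and Atf3 in Fibroblast-like against CM-like cells was 0.12 in sums per chip. The causes were not tested. With either block no member was called in any class, and with the chip as block members of other classes turned too, such as Junb (0.60) and Atf3 (1.23) in Macrophage-like cells.

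The number of members called later against earlier in CM-like cells (7) was 0 for P14 against P7 and 3 with cells called one by one. In Endothelial-like cells (0) it was 2 with DESeq2 and 1 with no low-count filter, with cells called one by one, with the cap and with sums per chip. In Fibroblast-like cells (1) it was 0 for P14 against P7 and 2 with DESeq2 and with the cap, and in Macrophage-like cells (2) it was 0 for P14 against P7 and for cells of at least 1000 genes, and 1 with cells called one by one and with sums per chip. DESeq2 called 5 members in Endothelial-like against CM-like cells, and cells called one by one left 3 in Fibroblast-like. The settings also differed in how many genes they called over all, as given below. Their member counts therefore cannot be set against the shares of the main fits. Thinning to 1000 or 5000 UMIs gave shares of P28 CM-like cells of 11.7 or 30.2% for Jun and 12.5 or 34.4% for Fos.

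With 1 mouse left out, called members numbered 3 to 7 in CM-like, 0 to 1 in Endothelial-like, 0 to 2 in Fibroblast-like and 0 to 1 in Macrophage-like cells for later against earlier hearts, 3 to 5 for Fibroblast-like against CM-like cells (3 without P4 mouse 1 or P7 mouse 2), and 0 to 1 for the knockdown in CM-like cells. Knockdown differences in CM-like cells ranged from −0.16 to 0.44 for Junb, −1.31 to 0.61 for Jund, −1.79 to 2.56 for Fos, −2.0 to 0.22 for Fosb, −0.38 to 0.15 for Fosl2, −0.87 to 0.22 for Atf3, −7.46 to 5.89 for Batf and −0.27 to 1.82 for Maff, Fos in Fibroblast-like cells from −2.52 to 1.03 and Jun in Macrophage-like cells from −1.06 to 1.01. A mouse left alone in its hairpin was taken to vary like the other group.

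Genes called over all settings numbered 0 to 385, 136, 136 and 71 for the knockdown (0 in each), 166 to 2419, 43 to 1328, 100 to 1466 and 68 to 1223 for later against earlier hearts, 0 to 221, 68, 130 and 156 for P7 against P4, 2729 to 4847, 2702 to 4877 and 3634 to 5829 between classes, and 2 to 986, 3 to 218, 22 to 562 and 160 to 1338 for shNT against wild-type P28 hearts.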

Other observations

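Other immediate early genes were also compared between wild-type P28 and shNT hearts. Of these, 6 of 21 were lower in shNT CM-like cells, 0 of 21 in Endothelial-like, 2 of 22 in Fibroblast-like and 7 of 23 in Macrophage-like cells, by edgeR with adjustment over all genes. Heat shock genes were lower for 2, 1, 0 and 3 of 10. Among the members, Junb was lower by a log2 change of −3.74 ± 0.63 in Fibroblast-like cells and −3.59 ± 0.55 in Macrophage-like cells (SE, edgeR adjusted p = 0.0151 and 0.0029), and Fos by −4.25 ± 0.99 in Macrophage-like cells (SE, adjusted p = 0.0309). DESeq2 called 6, 1, 5 and 3 members in the 4 classes. The share of all genes that DESeq2 called is not given here, so these counts cannot be set against the edgeR shares above. All 8 cardiomyocyte markers were higher in shNT sums of both these classes, and their part in these values was not tested.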
